A study of Mus musculus with 48 samples.

Results

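The cells described here are the astrocyte-marker cells of the embryonic mouse hypothalamus, 837 of the 14121 cells in the data. A cell was taken when it held at least 1 unique molecular identifier (UMI, a tag that marks 1 captured RNA molecule) of at least 3 of 8 astrocyte genes, namely Slc1a3, Aldh1l1, Aqp4, Mlc1, Slc4a4, Ednrb, Pla2g7 and Timp4. It also had to hold no UMI of the tanycyte gene Rax and UMIs of at most 1 of 6 genes of connective tissue or dividing cells, Col1a1, Col1a2, Col3a1, Dcn, Mki67 and Top2a. Of 1093 cells with at least 3 of the astrocyte genes, 82 held Rax and 190 held at least 2 of the excluded genes, 16 of them both, which left 340 cells from control and 497 from Eed-cKO embryos. The cells were thus chosen by the UMIs of these rule genes, whose levels are given below as a description only.

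The hypothalamus was dissected at E18.5 (embryonic day) and single cells were captured in ddSEQ droplets, with 3′ end RNA sequencing. Control embryos carried floxed alleles of Eed on both chromosomes (Eed fl/fl). The Eed-cKO embryos carried the same floxed alleles and the Sox1-Cre insertion, which expresses the recombinase from the Sox1 locus in the early neural plate and so removes Eed from the whole central nervous system, while vascular, blood and other cells outside the neural lineage keep it. There were 6 control embryos from 4 litters (2 female, 4 male; 22 libraries) and 9 Eed-cKO embryos from 6 litters (5 female, 4 male; 26 libraries). No litter gave both genotypes, so litter and genotype cannot be told apart.

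Eed is a core subunit of Polycomb repressive complex 2 (PRC2), which methylates lysine 27 of histone H3 and so helps to keep developmental genes silent. Astrocytes are the glia that clear glutamate and GABA from synapses, buffer potassium and water, supply lipids to neurons and ensheath vessels. They arise late in development from radial glia after neurons are made, and they mature over weeks, so cells at E18.5 are young. Ependymal cells and tanycytes, which line the third ventricle, come from the same radial glia and share many transcripts with astrocytes.

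The name astrocyte was borne out only in part. Apoe, a lipid carrier not used in the rule, was detected in 95.3% of the cells in control and 95.8% in Eed-cKO, and Gja1, the main astrocyte gap junction gene, in 70.6% and 69.2%. At least 3 of 10 ependymal markers were present in 89 of the 340 cells from control and 169 of the 497 from Eed-cKO, at least 3 of 10 tanycyte markers in 25 and 155, and at least 3 of 8 leptomeningeal markers in 0 and 26. Any of these applied to 104 control cells (30.6%) and 276 Eed-cKO cells (55.5%), which left 236 and 221 cells with fewer such markers. At least 3 of 8 neuron markers were found in 117 control (34.4%) and 142 Eed-cKO cells (28.6%); no doublet caller was run. The results were therefore also computed in the 236 and 221 cells with fewer than 3 markers of each of these lists, a subset chosen after the data were seen. Cells with 1 or 2 such markers remain in it. Foxj1 was still found in 19.1% of its control and 26.2% of its Eed-cKO cells, and the tanycyte marker Crym in 3.39% and 21.7%. Of 142 genes named by rule and called in all cells, 90 were called in that subset, 28 were not and the rest had too few counts there. The 142 and the 90 include 27 and 15 Hox genes, whose calls were fixed by the count filter, and other genes at 0 UMIs in control. These counts therefore do not measure how well calls hold. Because Crym, Tgfb2, Col23a1 and Lhx2 are themselves tanycyte markers that rose in Eed-cKO, membership of that subset moves with genotype.

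The depth was similar in both groups. The median cell held 4561.5 UMIs in control and 4310 in Eed-cKO, and neurons (11208 cells with at least 3 of the 8 neuron markers and at most 1 of the astrocyte genes) held 4951 and 4529. Summed over the astrocyte-marker cells, an embryo gave between 51948 and 632463 UMIs. The embryo with the fewest, Eed-cKO embryo 2, had 19 such cells. A library stood apart: control embryo 5 had a library of 1207 cells, against 163 to 465 in the others, and 67 of that embryo's 82 astrocyte-marker cells came from it. Among all libraries 101 cell barcodes occurred more than once, 12 astrocyte-marker cells carried such a barcode, and 1 barcode was shared by a pair of them.

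Cells at the edge of the rule were of mixed type. Cells with 2 of the 8 astrocyte genes (109 in control, 188 in Eed-cKO), which fell just outside, held at least 3 neuron markers in 58.7% and 45.2% and Apoe in 51.4% and 68.6%. Cells with 3 of the genes (46 and 111), just inside, held neuron markers in 34.8% and 37.8% and Apoe in 80.4% and 90.1%. The step from 2 to 3 genes thus lowered the share with neuron markers and raised the share with Apoe in both genotypes. The rule genes themselves differed in direction within the chosen cells. The glutamate transporter Slc1a3 was present in 96.8% of cells in control and 97.2% in Eed-cKO, at 3053 ± 759 and 2677 ± 974 CPM (counts scaled to 1000000 UMIs per embryo; mean ± SD over 6 and 9 embryos). The endothelin receptor Ednrb stood at 1702 ± 388 and 753 ± 212 CPM and the bicarbonate transporter Slc4a4 at 1025 ± 270 and 515 ± 229 CPM. The water channel Aqp4, in contrast, was present in 30.9% of cells in control and 53.3% in Eed-cKO.

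Astrocyte-marker cells made up a larger share of the Eed-cKO hypothalamus, but this difference was not seen in the subset of 236 and 221 cells. The share of all cells was 2.92% in the lowest, 4.57% in the median and 7.39% in the highest control embryo. In Eed-cKO it was 4.59%, 7.70% and 9.20%, so that the groups overlapped. The means were 4.74% ± 1.64 (SD, n = 6) and 7.27% ± 1.75 (SD, n = 9), a difference of 2.53 percentage points (exact permutation test over embryos, two-sided, p = 0.0174). With only the subset of 236 and 221 cells counted, the shares were 3.27% and 3.45% (difference 0.178, exact permutation p = 0.766). The call was also lost when at least 4 of the genes were asked (1.40, exact permutation p = 0.0857) and when every cell was thinned to 2000 UMIs (2.17, p = 0.0843), and with the 4 and 6 litters as samples (2.25, exact permutation p = 0.0714). The share is not independent of the other cells: control embryos gave 840 to 1448 neurons and Eed-cKO embryos 172 to 902.

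**Figure D1:**
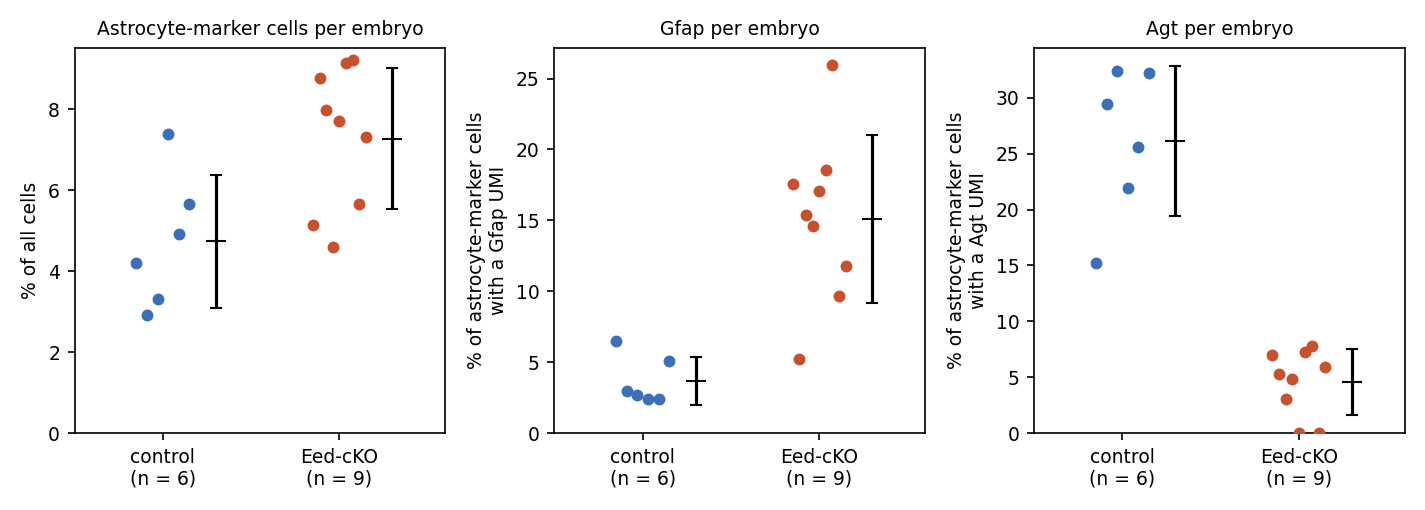
Astrocyte-marker cells as a percent of all cells (left), and the percent of astrocyte-marker cells with a UMI of Gfap (middle) or Agt (right), per embryo, in 6 control and 9 Eed-cKO embryos; each point is an embryo and bars give the mean and SD. The Gfap share was 3.69% in control and 15.1% in Eed-cKO, while the Agt share was 26.1% and 4.57%.

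Gfap, the intermediate filament by which astrocytes are best known, was found in more of the cells in Eed-cKO. The share of astrocyte-marker cells with a Gfap UMI was 2.44% in the lowest, 2.82% in the median and 6.52% in the highest control embryo, and 5.26%, 15.4% and 25.97% in Eed-cKO. The groups overlapped only at the bottom of the Eed-cKO range. The means were 3.69% ± 1.71 (SD, n = 6) and 15.1% ± 5.89 (SD, n = 9), with an exact permutation p of 0.000999 (two-sided). In total 12 of 340 and 85 of 497 cells held Gfap, against 3 of 6121 control neurons (0.0490%) and 7 of 5087 Eed-cKO neurons (0.138%). At 2000 UMIs per cell the shares were 2.98% and 13.3%, and in the subset of 236 and 221 cells 3.10% and 14.6% (exact permutation p = 0.000599). The summed Gfap counts differed less clearly. The level was 5.55, 21.9 and 52.7 CPM (lowest, median and highest) in control and 17.05, 76.96 and 131 in Eed-cKO (log2 fold change 1.41 ± 0.387, adjusted p = 0.0212 by edgeR's quasi-likelihood test; here and below ± is the SE of a fold change and 3 values are the lowest, median and highest embryo). That call was lost without control embryo 2 (adjusted p = 0.0585), control embryo 3 (0.0578) or Eed-cKO embryo 6 (0.0574), and in the subset of 236 and 221 cells (1.21, adjusted p = 0.197).

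Agt went the other way. It encodes angiotensinogen, a secreted precursor that is a known marker of hypothalamic astrocytes. Its level was 79.2, 94.4 and 111 CPM in control and 0, 12.6 and 39.2 in Eed-cKO, without overlap (log2 fold change -2.60 ± 0.378, adjusted p = 2.42e-05). The share of cells with an Agt UMI was 25.6% in control and 4.83% in Eed-cKO, or 15.7% and 2.92% per embryo at 2000 UMIs per cell, against 0.0817% and 0.0393% of neurons. The fall held in the subset of 236 and 221 cells (log2 fold change -2.92, adjusted p = 7.02e-05). Only 5 control and 7 Eed-cKO cells held both Agt and Gfap.

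Over all genes, 12544 were tested in the summed counts of the astrocyte-marker cells and 856 changed (6.82%), 540 up (4.3%) and 316 down (2.52%); the median log2 fold change was 0.0058. In 202 genes (1.61%) the embryos of the genotypes did not overlap, 124 higher (0.989%) and 78 lower (0.622%) in Eed-cKO. In the subset of 236 and 221 cells, 389 of 11034 genes changed. Gene groups are given below by how many of their tested genes passed at an adjusted p under 0.05, and these lists are described, not tested.

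Most surface receptors of astrocytes fell. Of 16 tested, 10 fell and 0 rose (2.52% of all genes fell), with a median log2 fold change of -1.08, and 8 fell in the subset of 236 and 221 cells. Among the metabotropic glutamate receptors, through which astrocytes sense synaptic glutamate, Grm3 stood at 80.4, 189.8 and 277 CPM in control and 19.02, 31.6 and 60.8 in Eed-cKO (log2 fold change -2.28 ± 0.264, adjusted p = 8.03e-07). Grm5 stood at 214, 229 and 341 CPM in control and 45.7, 82.2 and 103 in Eed-cKO (log2 fold change -1.73 ± 0.185, adjusted p = 1.89e-07). Neither overlapped between genotypes. Tril, a co-receptor for toll-like receptors in glia, had 277, 435 and 537 CPM in control and 35.6, 119 and 179 in Eed-cKO (log2 fold change -1.87 ± 0.231, adjusted p = 2.22e-06). Ptprz1, a receptor phosphatase of radial glia and astrocytes, had 904, 1930.0 and 2144 CPM in control and 332, 516 and 843 in Eed-cKO (log2 fold change -1.64 ± 0.203, adjusted p = 2.33e-06), and all Eed-cKO embryos lay below all control embryos. The GABA-B receptor subunit Gabbr1 (log2 fold change -1.24 ± 0.163, adjusted p = 5.02e-06), the FGF receptor Fgfr3 (log2 fold change -1.38 ± 0.226, adjusted p = 0.000127) and the sphingosine-1-phosphate receptor S1pr1 (log2 fold change -1.11 ± 0.234, adjusted p = 0.00225) fell as well. Gpr37l1, a prosaposin receptor, fell by 1.48 on the log2 scale (adjusted p = 0.0211), a call lost without control embryo 2 or 4 (adjusted p = 0.0829 and 0.0568) and in the subset (adjusted p = 0.482).

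Genes of transmitter uptake moved in both directions. Of 14 tested, 4 rose and 3 fell, with a median of -0.04 (4.3% of all genes rose and 2.52% fell). The 3 that fell were the GABA transporter Slc6a11, the glycine transporter Slc6a9 and the cystine-glutamate exchanger Slc7a11. Slc6a11 stood at 541, 1027 and 1491 CPM in control and 168, 529 and 789 in Eed-cKO (log2 fold change -1.18 ± 0.247, adjusted p = 0.00193), with overlap. It fell in the subset of 236 and 221 cells too (-1.31). Slc1a2, the glutamate transporter that marks maturing astrocytes, rose from 334, 384 and 511 CPM in control to 379, 921 and 1467 in Eed-cKO (log2 fold change 1.14 ± 0.242, adjusted p = 0.0023), while the share of cells with a UMI was 66.2% and 69.4%. In that subset its change was 0.89 (adjusted p = 0.0576), so the call was lost. Glul, which makes glutamine from glutamate, Phgdh, a serine synthesis enzyme, and Abat, which degrades GABA, rose by 0.75, 0.81 and 0.65 on the log2 scale. However, each lost its call in the fits without 1 of 9, 10 and 8 embryos and in the subset of 236 and 221 cells.

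Among 20 genes of lipid and energy metabolism 3 fell and 0 rose, with a median of -0.19 (2.52% of all genes fell and 4.3% rose). Scd2, a fatty acid desaturase of developing brain, had 3128, 5906 and 6976 CPM in control and 1073, 2034 and 2557 in Eed-cKO (log2 fold change -1.55 ± 0.189, adjusted p = 1.93e-06). The lowest control embryo was control embryo 5, and it still lay above the highest Eed-cKO embryo. The fatty acid binding protein Fabp7, a radial glia and young astrocyte gene, fell from 11145 ± 2243 to 5547 ± 1974 CPM (log2 fold change -1.01 ± 0.210, adjusted p = 0.00192), and the lipoprotein Clu fell by 0.61 on the log2 scale (adjusted p = 0.0253; 0.05005 without control embryo 2, 0.0661 without control embryo 4). Apoe (0.06, adjusted p = 0.942) and Aldoc, a glycolytic enzyme of mature astrocytes (0.05, adjusted p = 0.959), did not pass. The sterol enzyme Nsdhl, which came from the rule on the largest falls and not from the list, had 209.97 ± 60.8 CPM in control and 61.8 ± 24.5 in Eed-cKO (log2 fold change -1.85 ± 0.231, adjusted p = 2.44e-06).

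Of 11 channels, pumps and junction genes, 3 fell and 1 rose (median -0.42), while 2.52% of all genes fell and 4.3% rose. Kcnj10, the potassium channel by which astrocytes buffer extracellular potassium, had 122, 281 and 365 CPM in control and 53.3, 112 and 190.1 in Eed-cKO (log2 fold change -1.15 ± 0.238, adjusted p = 0.00181), and in the subset of 236 and 221 cells the fall was -1.57. The claudin Cldn10 fell from 119 ± 66.2 to 35.3 ± 28.5 CPM (log2 fold change -2.01 ± 0.378, adjusted p = 0.00063). The chloride channel Ttyh1 fell by 0.63 on the log2 scale (adjusted p = 0.0295) and lost the call without any 1 of 5 embryos. Fxyd1, a regulator of the sodium pump, rose from 27.3 ± 15.4 to 77.01 ± 23.1 CPM (log2 fold change 1.56 ± 0.295, adjusted p = 0.000658) but not in the subset (adjusted p = 0.375). The gap junction gene Gja1 had 840.1 ± 332 and 551 ± 205 CPM and did not pass (adjusted p = 0.168).

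Of 16 secreted and matrix genes tested, 2 fell and 3 rose (median -0.08), while 2.52% of all genes fell and 4.3% rose. Besides Agt, the phagocytic opsonin Mfge8 fell from 1371 ± 260.4 to 665 ± 279.8 CPM (log2 fold change -1.04 ± 0.224, adjusted p = 0.00255), without overlap, and by 1.13 on the log2 scale in the subset of 236 and 221 cells. Gpc4, Igfbp2 and Itih3 rose by 1.16, 0.80 and 1.49 on the log2 scale, and none of these passed in that subset (adjusted p = 0.985, 0.789 and 0.213). Their calls were also lost without 1 of 3, 5 and 8 embryos.

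**Figure D2:**
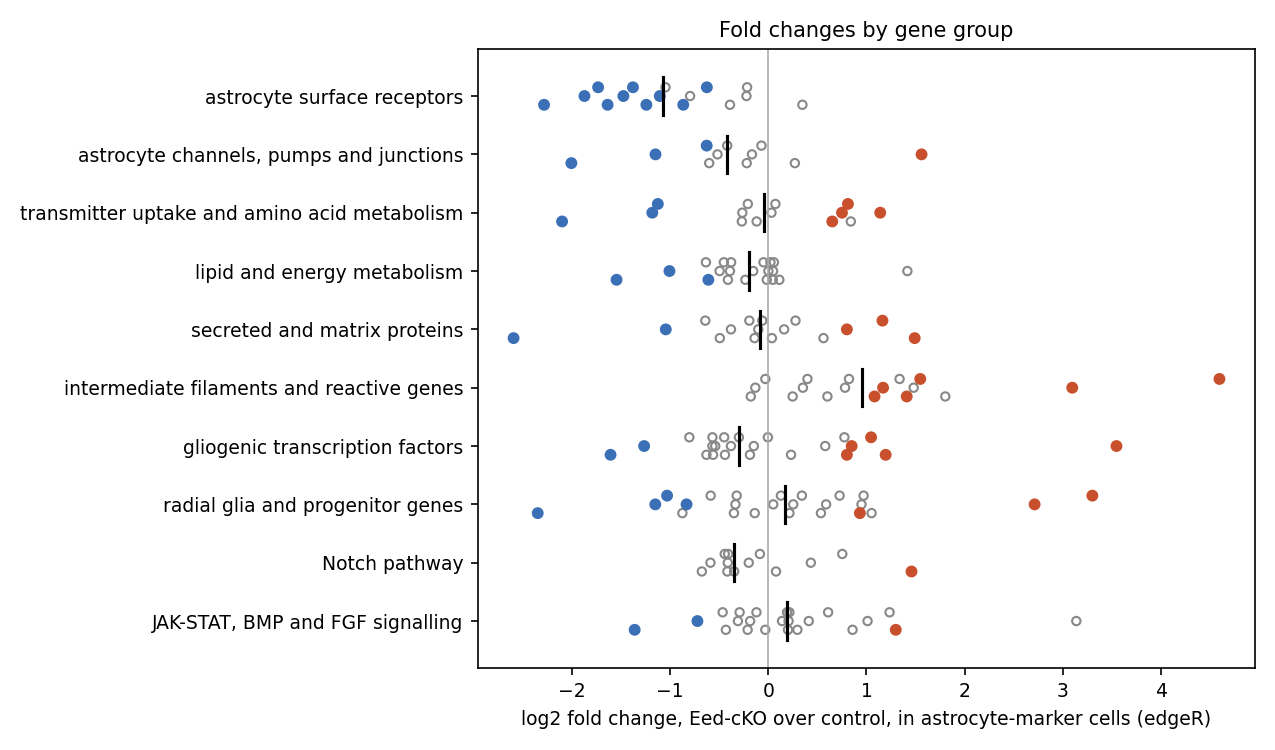
log2 fold change (Eed-cKO against control) in the astrocyte-marker cells for each gene tested in 10 gene groups; each point is a gene, filled where the adjusted p was under 0.05. Surface receptors lie mostly below 0 (median -1.08) and filament and reactive genes mostly above it (median 0.95).

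Intermediate filament and reactive genes lay mostly higher in Eed-cKO. Of 18 tested, with a median of 0.95, S1pr3, Vim, Nes and Gfap rose (4.3% of all genes rose) and 0 fell. The calls of Timp1 and Osmr, which had 1 and 0 UMIs in control and were tested through the Eed-cKO embryos, are not counted here. In the subset of 236 and 221 cells, 1 of 14 tested rose and 1 fell (median 0.54). The gene that fell was Emp1 (-1.35, adjusted p = 0.0216). Vim, the filament of immature glia, rose from 779, 1577 and 1895 CPM in control to 1517, 3213 and 4977 in Eed-cKO (log2 fold change 1.08 ± 0.213, adjusted p = 0.00105), and Nes, the filament of neural progenitors, from 44.4, 70.3 and 146 CPM in control to 101, 177 and 308 in Eed-cKO (log2 fold change 1.17 ± 0.245, adjusted p = 0.00207). S1pr3 rose from 50.6 ± 27.9 to 144 ± 53.3 CPM (log2 fold change 1.55 ± 0.283, adjusted p = 0.000451). In that subset none of Vim (0.68, adjusted p = 0.145), Nes (0.38, 0.73), S1pr3 (0.98, 0.258) and Gfap passed. Timp1 rested on 1 UMI in control and 22 in Eed-cKO, and Osmr on 0 and 27 (at least 5.95-fold higher). The calcium-binding protein S100b, a late astrocyte gene, had 37.9 ± 16.9 and 49.3 ± 34.2 CPM (adjusted p = 0.413).

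Of 23 transcription factors of gliogenesis tested, 5 rose and 2 fell, with a median of -0.30 (4.3% of all genes rose and 2.52% fell). These counts moved with the cells and embryos used. Without cells with 3 neuron markers 7 rose and 4 fell (654 and 388 of all 11443 genes). Without the large library of control embryo 5, 4 rose and 6 fell (622 and 372 of all 12432 genes). Fits without 1 embryo gave 3 to 6 rises and 1 to 8 falls, against 439 to 591 and 242 to 383 over all genes. The Nfi factors and Sox9, which switch radial glia to glial fate, were not called: Nfia had 327, 757 and 1064 CPM in control and 255, 567.9 and 681 in Eed-cKO (log2 fold change -0.56, adjusted p = 0.133), Nfib 455, 1011 and 1350.2 CPM in control and 385, 634 and 938 in Eed-cKO (-0.57, 0.0743), and Sox9 441, 856 and 1199 CPM in control and 338, 725 and 1329.8 in Eed-cKO (-0.19, 0.766). The groups overlapped for all of them. Without cells with 3 neuron markers, however, Nfia (-0.51, adjusted p = 0.0343) and Nfib (-0.70, adjusted p = 0.000998) passed as lower in Eed-cKO. Nfix and Sox9 did not pass there (adjusted p = 0.106 and 0.558). Atf3, a stress-induced factor, had the smallest p of the list and rose from 0, 23.9 and 47.1 CPM in control to 213, 304 and 455 in Eed-cKO (log2 fold change 3.55 ± 0.295, adjusted p = 3.23e-09), from 5.88% to 35.8% of cells with a UMI, against 0.801% and 2.30% of neurons. The BMP targets Id1 (log2 fold change 1.196 ± 0.257, adjusted p = 0.00253) and Id2 (log2 fold change 1.05 ± 0.241, adjusted p = 0.0051) rose, and Id3 and Bhlhe40 rose with calls that were lost without any 1 of 8 and of 9 embryos. Tcf7l2, a Wnt effector, fell from 349 ± 207 to 111 ± 49.8 CPM (log2 fold change -1.61 ± 0.298, adjusted p = 0.000527), and Otx1 by 1.27 on the log2 scale (adjusted p = 0.0425), a call lost without any 1 of 7 embryos. Bhlhe40 and Otx1 did not pass in the subset either (adjusted p = 0.275 and 0.0959).

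Progenitor genes moved in both directions. Of 24 radial glia and progenitor genes 3 rose and 4 fell, with a median of 0.17 (4.3% of all genes rose and 2.52% fell). The D-type cyclins rose: Ccnd1 from 42.6, 66.001 and 123 CPM in control to 524, 665 and 1114 in Eed-cKO (log2 fold change 3.30 ± 0.235, adjusted p = 1.86e-10) and Ccnd2 from 74.9, 197 and 243 CPM in control to 575, 1309 and 1622 in Eed-cKO (log2 fold change 2.71 ± 0.261, adjusted p = 3e-08), both without overlap. The share of cells with a Ccnd1 UMI was 20% in control and 76.5% in Eed-cKO (12.4% and 60.5% per embryo at 2000 UMIs per cell), against 2.32% and 13.7% of neurons. Cells with 2 or more proliferation or collagen genes were removed by the rule, so nothing is read from the cycling markers here. Hes1, a Notch target, rose from 248 ± 57.04 to 470.1 ± 105 CPM (log2 fold change 0.93 ± 0.185, adjusted p = 0.00113). The progenitor factors Sox1 (165 ± 45.6 and 74.7 ± 19.03 CPM, log2 fold change -1.15 ± 0.207, adjusted p = 0.000403) and Sox2 (log2 fold change -0.83 ± 0.193, adjusted p = 0.0054) and the secreted Wnt antagonists Sfrp1 (log2 fold change -1.03 ± 0.204, adjusted p = 0.00107) and Sfrp2 (log2 fold change -2.35 ± 0.364, adjusted p = 6.03e-05) fell. Cre is inserted in the Sox1 locus of the Eed-cKO embryos, and the part of that allele in the Sox1 counts was not tested.

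Of 13 Notch pathway genes only Hey1 passed (6.82% of all genes changed), and the median was -0.35. Hey1 had 52.7, 70.3 and 109.6 CPM in control and 139.9, 207 and 273 in Eed-cKO (log2 fold change 1.46 ± 0.199, adjusted p = 9.88e-06). Of 23 genes of JAK-STAT, BMP and FGF signalling 1 rose and 2 fell (median 0.19), while 4.3% of all genes rose and 2.52% fell. Socs3, the feedback inhibitor of JAK-STAT signalling, rose from 24.7 ± 7.34 to 58.8 ± 29.7 CPM (log2 fold change 1.299 ± 0.313, adjusted p = 0.00751), the LIF receptor Lifr fell from 117 ± 58.1 to 46.2 ± 21.9 CPM (log2 fold change -1.36 ± 0.298, adjusted p = 0.00315), and the FGF antagonist Spry2 fell by 0.72 on the log2 scale (adjusted p = 0.0223; 0.0577 and 0.0507 without control embryos 1 and 6). In the subset of 236 and 221 cells Socs3 (0.99, adjusted p = 0.272) and Spry2 (-0.66, adjusted p = 0.204) did not pass. Stat3, the factor that acts on the Gfap promoter, had 112 ± 26.4 and 166 ± 64.98 CPM (adjusted p = 0.127).

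**Figure D3:**
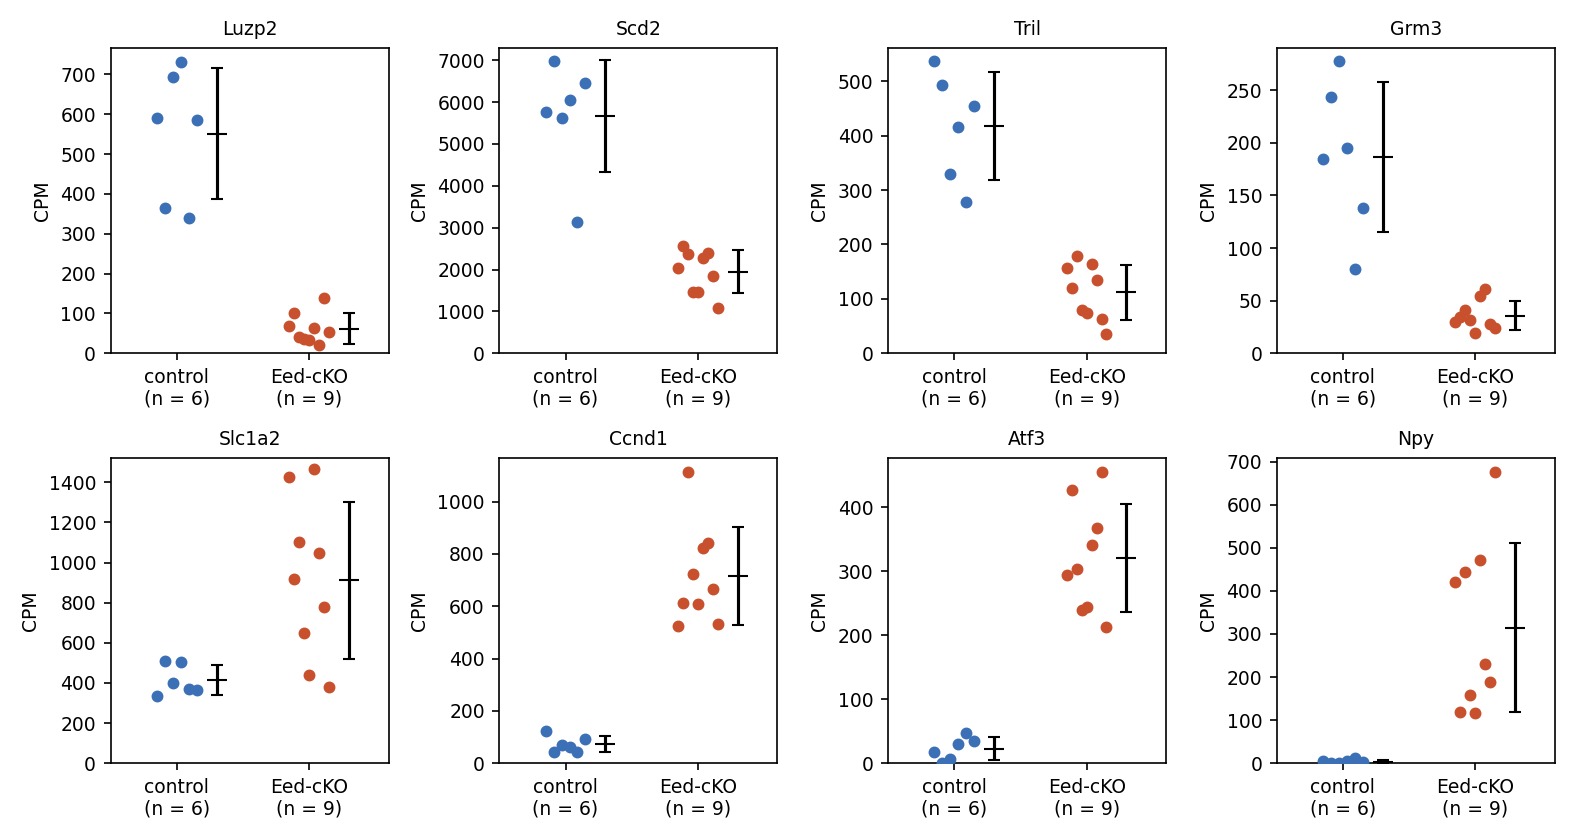
CPM per embryo in the astrocyte-marker cells for 8 genes, in 6 control and 9 Eed-cKO embryos; points are embryos and bars the mean and SD. Luzp2, Scd2, Tril and Grm3 lie lower and Ccnd1, Atf3 and Npy higher in every Eed-cKO embryo than in every control embryo, while Slc1a2 rises with overlap.

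Among the 15 largest falls without overlap were genes outside the groups above. Luzp2, a secreted leucine zipper protein, had 338, 587.5 and 731 CPM in control and 21.2, 53.3 and 139.9 in Eed-cKO (log2 fold change -3.36 ± 0.265, adjusted p = 1.27e-09), and was present in 56.2% and 15.7% of cells, while -0.61 ± 0.116 was its log2 fold change in neurons. Ampd3, an AMP deaminase, had 69.3, 106 and 139 CPM in control and 6.996, 11.9 and 18.96 in Eed-cKO (log2 fold change -3.08 ± 0.263, adjusted p = 4.7e-09). Ndnf, a secreted trophic factor, had 42.6, 64.5 and 106 CPM in control and 0, 6.996 and 17.8 in Eed-cKO (log2 fold change -3.12 ± 0.361, adjusted p = 8.16e-07). Each lay below all control embryos in every Eed-cKO embryo, and each held in the subset of 236 and 221 cells (-3.57, -3.34 and -3.30). The axon guidance receptor Robo1 (log2 fold change -1.93 ± 0.223, adjusted p = 8.03e-07), the adhesion molecule Cadm2 (log2 fold change -1.88 ± 0.168, adjusted p = 7.77e-09), the potassium channel Kcnd2 (log2 fold change -2.20 ± 0.263, adjusted p = 1.41e-06) and the radial glia nuclear receptor Nr2e1 (log2 fold change -1.89 ± 0.328, adjusted p = 0.000256) also fell without overlap. Hsd11b1, which regenerates active glucocorticoid, went from 19 UMIs to 0 (at least 9.57-fold lower), and Trim12a from 15 UMIs to 0 (at least 7.56-fold lower). Agt, Grm3, Tril, Nsdhl, Lhfpl3 and Atp13a4 were the rest of the 15.

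Among the 15 largest rises without overlap, most were Hox and other positional genes, described below, and a few were not. Npy, which encodes the feeding peptide neuropeptide Y, had 0, 3.66 and 11.1 CPM in control and 117, 230.1 and 676 in Eed-cKO (log2 fold change 5.96 ± 0.521, adjusted p = 6.37e-09), and was present in 2.06% of cells in control and 34.6% in Eed-cKO (0.805% and 25.6% per embryo at 2000 UMIs per cell). In neurons, 4.49% and 5.90% of cells held Npy. Npy rose as well in the subset of 236 and 221 cells (6.70, adjusted p = 2.87e-07). Crym, a thyroid hormone binding protein of tanycytes, rose from 13.9, 43.2 and 73.05 CPM in control to 237, 553 and 1289 in Eed-cKO (log2 fold change 4.05 ± 0.357, adjusted p = 6.82e-09), and Igf2, an imprinted growth factor of leptomeninges, from 0, 13.5 and 17.3 CPM in control to 68.2, 183 and 456 in Eed-cKO (log2 fold change 4.18 ± 0.399, adjusted p = 2.81e-08). Pgm5 was at 0 UMIs in control and 97 in Eed-cKO (at least 21.4-fold higher).

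Cyclin-dependent kinase inhibitors hold cells out of the cycle and are classic PRC2 targets. Of 7 tested, with a median of 2.65, Cdkn1a, Cdkn2b and Cdkn2c rose (4.3% of all genes rose). The call of Cdkn2a, which was tested only through the Eed-cKO embryos, is not counted here. Cdkn2a was at 0 UMIs in all 6 control embryos and at 130 in Eed-cKO, with 13.99, 53.7 and 85.2 CPM per embryo (at least 28.7-fold higher against a floor of 3 UMIs over the group). It was found in 18.51% of the Eed-cKO astrocyte-marker cells and 1.89% of Eed-cKO neurons. Cdkn1a rose from 21.99, 43.99 and 55.7 CPM in control to 160.01, 239 and 437 in Eed-cKO (log2 fold change 2.65 ± 0.263, adjusted p = 4.67e-08), whereas its log2 fold change in neurons was -0.10 ± 0.0948. Cdkn2b rose from 3.76 ± 4.44 to 44.04 ± 19.2 CPM (log2 fold change 3.34 ± 0.488, adjusted p = 2.51e-05) and Cdkn2c from 4.81 ± 2.498 to 44.8 ± 26.8 CPM (log2 fold change 2.87 ± 0.522, adjusted p = 0.000443). Cdkn1b (-0.33, adjusted p = 0.415) and Cdkn1c (0.65, adjusted p = 0.174) did not pass. The rises of Cdkn1a, Cdkn2b and Cdkn2c held in the subset of 236 and 221 cells.

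Of 22 Polycomb subunits 1 changed, while 6.82% of all genes changed. Bmi1, a subunit of PRC1, had 27.9, 56.9 and 83.6 CPM in control and 136, 149 and 239 in Eed-cKO (log2 fold change 1.56 ± 0.216, adjusted p = 1.2e-05). Eed itself (chromosome 7, 89954654 to 89980983, GRCm38) had 23.2, 31.3 and 57.8 CPM in control and 7.93, 23.5 and 51.1 in Eed-cKO (log2 fold change -0.52 ± 0.351, adjusted p = 0.487). The reads come from the 3′ end of the transcript, which the deletion need not remove, so the level of Eed in these cells does not check the genotype labels. Ezh2 had 79.8 ± 22.9 and 63.9 ± 29.6 CPM (adjusted p = 0.723) and Suz12 79.4 ± 22.1 and 71.4 ± 12.2 CPM (adjusted p = 0.885).

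Hox genes, which give positional identity to the hindbrain and spinal cord and are silent in the forebrain, were on in Eed-cKO astrocyte-marker cells. Control cells held 1 Hox UMI among 1719141 UMIs, and Eed-cKO cells 1488 among 2597235, a ratio of 985 with a 95% counting interval of 177 to 38928 (it covers counting error only). Of 34 Hox genes analysed, 33 had a UMI in the Eed-cKO cells and 11 had one in all 9 embryos. Of the 34, 27 had enough counts to be tested, all through the Eed-cKO embryos alone, so their calls were fixed by the filter and are not counted here. By bound the leading genes were Hoxa7, Hoxa9 and Hoxa5, at least 25.6, 25.1 and 23.8-fold higher. How reads shared by overlapping neighbours of a cluster were assigned is not given in the sources used here. Hoxa9 stood at 29.4, 49.3 and 83.2 CPM in Eed-cKO, Hoxa7 at 15.9, 48.98 and 102 and the lumbosacral gene Hoxb13 at 20.8, 34.98 and 51.1.

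**Figure D4:**
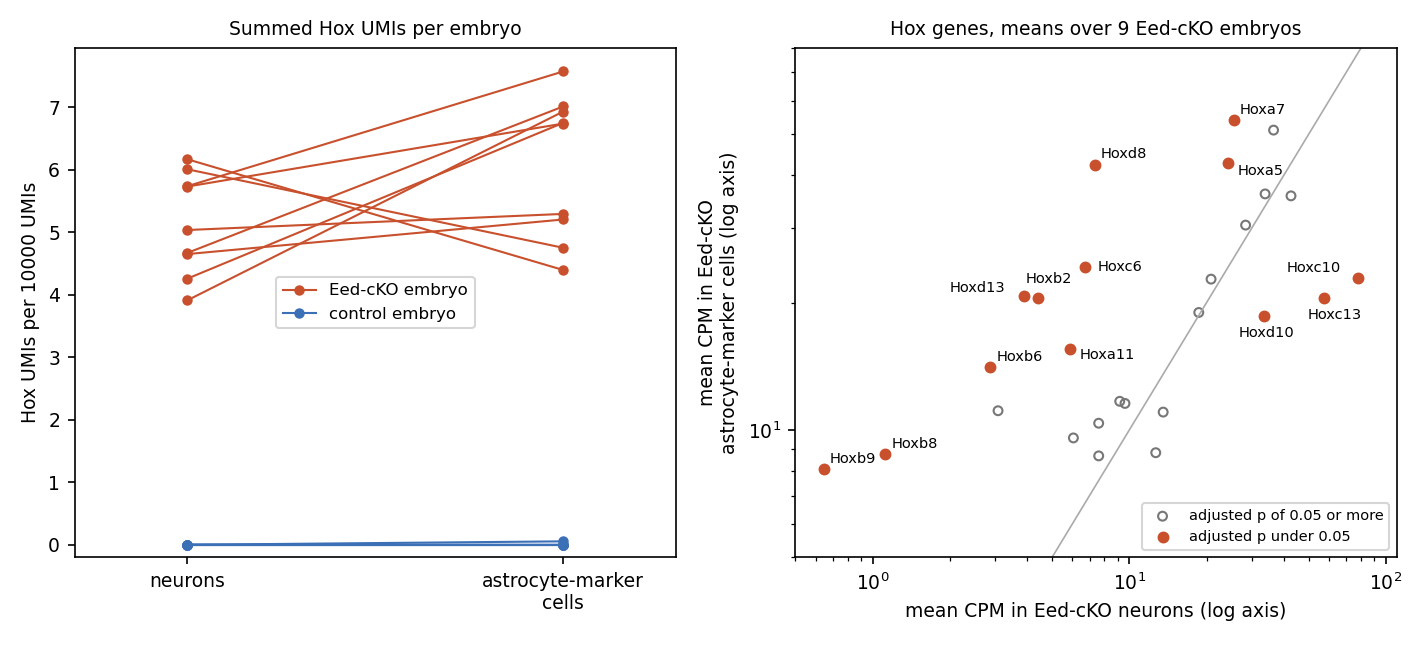
Left, Hox UMIs per 10000 UMIs in each of 6 control and 9 Eed-cKO embryos, in neurons and in astrocyte-marker cells, with lines joining the same embryo. Right, mean CPM of each of 27 Hox genes in Eed-cKO neurons (x axis) and astrocyte-marker cells (y axis) on log axes; Hoxc10, Hoxc13 and Hoxd10 lie below the line of equal levels, and Hoxa5, Hoxc6 and Hoxd8 above it.

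The Hox load was compared with neurons of the same 9 Eed-cKO embryos. Astrocyte-marker cells had 4.40, 6.74 and 7.57 Hox UMIs per 10000 UMIs (lowest, median and highest) and neurons 3.91, 5.04 and 6.17, with the astrocyte-marker cells higher in 7 of 9 embryos. The mean difference was 0.942 per 10000, which did not pass (exact sign-flip permutation test, two-sided, p = 0.125, smallest possible 0.00391). Without Eed-cKO embryo 5 the difference was 1.28 and the exact sign-flip p was 0.0469. More of the astrocyte-marker cells held a Hox UMI: 69.6% ± 7.78 (SD, n = 9) against 45.4% ± 7.81 of neurons, higher in 9 of 9 embryos (exact sign-flip p = 0.00391, Benjamini-Hochberg adjusted over 7 comparisons 0.0137). With each cell thinned to 2000 UMIs the shares were 57.4% and 38.0%. In all, 346 of 497 astrocyte-marker cells and 2245 of 5087 neurons held a Hox UMI, and 53.9% and 32.7% held UMIs of at least 2 Hox genes, whereas 1 of 340 control astrocyte-marker cells (0.294%) held any.

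The summed Hox clusters differed in opposite directions between the cell classes. Summed HoxA genes were higher in astrocyte-marker cells (2.21 against 1.44 UMIs per 10000; exact sign-flip, adjusted p = 0.0137), as were HoxD (1.11 against 0.730, adjusted p = 0.0137 by the same exact test) and HoxB genes (1.39 against 0.948, exact, adjusted p = 0.0365). The HoxC sum was lower (1.36 against 2.01, exact, adjusted p = 0.0328), with the astrocyte-marker cells higher in 2 of 9 embryos. Within HoxC, this was the direction of Hoxc10 (mean level 22.8 CPM in astrocyte-marker cells and 77.5 CPM in neurons) and Hoxc13 (20.5 and 57.3 CPM), each lower in all 9 embryos. Hoxc6 was higher (24.3 and 6.74 CPM), and the mean levels of Hoxc4, Hoxc5, Hoxc8 and Hoxc9 also lay higher in the astrocyte-marker cells, without passing or, for Hoxc5, without a test. Over the 27 Hox genes with at least 15 UMIs in the astrocyte-marker cells, a minimum not asked of the neurons, 10 were higher in astrocyte-marker cells after Benjamini-Hochberg adjustment of the exact sign-flip p (Hoxa5, Hoxa7, Hoxa11, Hoxb2, Hoxb6, Hoxb8, Hoxb9, Hoxc6, Hoxd8 and Hoxd13) and 3 were lower (Hoxc10, Hoxc13 and Hoxd10).

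Other positional factors were also detected in the Eed-cKO cells. Of 43 posterior and other non-forebrain factors analysed, 29 had enough counts to be tested, again mostly through the Eed-cKO embryos, so their calls are not counted here. Hand2, a heart and sympathetic factor, had 23.8, 48.98 and 66.1 CPM in Eed-cKO and 0 UMIs in control (at least 24.3-fold higher), Gata4, an endoderm and heart factor, 6.996, 25.3 and 51.1 CPM (at least 12.8-fold), and the midbrain factor En2 rose from 2.31 ± 4.62 to 26.5 ± 15.96 CPM (log2 fold change 3.56 ± 0.662, adjusted p = 0.000535). Pax2 (0 ± 0 and 5.49 ± 5.65 CPM) and Tfap2a (0.387 ± 0.948 and 11.1 ± 13.5 CPM), which direct hindbrain and spinal GABA neurons, rose from 0 and 1 UMIs to 18 and 28. In the subset of 236 and 221 cells En2 did not pass (adjusted p = 0.0923), and Pax2 and Tfap2a had too few counts. The calls of Hand2 and Gata4 in that subset are not counted either, for the same reason. Tfap2a did not pass without control embryo 6 (adjusted p = 0.0531). The stomach factor Barx1 (at least 26.7-fold) and the head organiser gene Gsc (at least 11.03-fold) were at 0 UMIs in control. Of 23 forebrain positional factors Nkx6-2, Lhx2 and Dlx5 rose (4.3% of all genes rose) and 0 fell (median 0.71). The call of Vax2, which was tested only through the Eed-cKO embryos, is not counted here. Vax2, an optic and ventral forebrain factor, was at 0 UMIs in control and at 13.99, 23.7 and 42.8 CPM in Eed-cKO (at least 16.5-fold higher), and Nkx6-2 rose from 9.25 ± 3.44 to 62.7 ± 21.5 CPM (log2 fold change 2.76 ± 0.345, adjusted p = 2.51e-06). Lhx2 and Dlx5 rose by 1.10 and 3.15 on the log2 scale. Neither passed in the subset of 236 and 221 cells, whereas Nkx6-2 did. The call of Dlx5 was lost without any 1 of 5 embryos.

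Markers of other cell types moved with genotype in some lists and not in others (4.3% of all genes rose and 2.52% fell). Of 10 ependymal markers tested 0 passed by edgeR (1 at an unadjusted p under 0.05), DESeq2 or limma (median 0.26). In this paragraph limma tested against a minimum log2 fold change of 0.18. Foxj1, the ciliogenesis regulator, had 269 ± 141 and 307 ± 140.3 CPM (adjusted p = 0.737), in 35.0% and 46.7% of cells, and the summed level of the list ran from 545 to 2629 CPM in control and from 674 to 3090 in Eed-cKO. Of 7 tanycyte markers 4 rose (Crym, Tgfb2, Col23a1 and Lhx2, median 1.10), with sums of 221 to 590.0 and 541 to 1969 CPM, while Rax was at 0 by the rule. Of the leptomeningeal markers, Igf2 rose, also in the subset of 236 and 221 cells. Foxc1 was at 5.78 CPM in control embryo 3 and at 0 in the other control embryos. It was tested mainly through the Eed-cKO embryos, so its call is not counted here. Col1a2 and Dcn were used by the rule and are given as levels only, 14.9 ± 8.72 and 111 ± 58.5 CPM for Col1a2 and 0.772 ± 1.89 and 18.52 ± 21.3 CPM for Dcn. The list had sums of 24.1 to 277 and 135 to 577 CPM. Of 7 oligodendrocyte precursor markers 4 fell (Gpr17, Lhfpl3, Olig2 and Olig1, median -0.99), with sums of 669.6 to 1603 and 223 to 967 CPM. In the subset of 236 and 221 cells 2 of 7 fell (median -0.50), Olig2 and Olig1 no longer passing (adjusted p = 0.511 and 0.509), and Olig1 also lost its call without control embryo 3 (adjusted p = 0.0574). Of 8 neuron markers and 4 transmitter genes of neurons 0 passed by edgeR (1 of each at an unadjusted p under 0.05), DESeq2 or limma (medians -0.16 and 0.46), with neuron marker sums of 1341 to 5198 and 424 to 5304 CPM. Of 3 endothelial markers 1 rose (Kdr), of 4 pericyte markers 2 rose (Acta2 and Myl9) and 1 fell (Pdgfrb), and of 8 microglia markers 0 were tested, with Cx3cr1 and Aif1 at 0 in both genotypes. Acta2, Myl9 and Pdgfrb did not pass in the subset (adjusted p = 0.145, 0.508 and 0.0597), the call of Pdgfrb was lost without any 1 of 10 embryos and that of Myl9 without control embryo 3 or 6. The part of these markers in the results was not tested, apart from the subset given beside them.

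The genotype difference was then set against that in neurons of the same embryos, with the interaction of genotype and cell class as the test. Of 15648 genes, 375 had a different genotype effect (2.4%), 216 more positive (1.38%) and 159 more negative (1.02%) in the astrocyte-marker cells. With neurons drawn down to the number of astrocyte-marker cells, 139 genes passed. Npy had a log2 fold change of 5.96 in astrocyte-marker cells and -0.73 ± 0.29998 in neurons (difference 6.95 ± 0.485, adjusted p = 1.9e-11). Igfbp5, an IGF binding protein, rose from 444 ± 111 to 1968 ± 625.03 CPM, with 2.15 against -0.58 ± 0.0808 in neurons (difference 2.74 ± 0.186, adjusted p = 1.8e-11). Cdkn1a (2.77 ± 0.249, adjusted p = 6.29e-09), Tmem132c (3.98 ± 0.332, adjusted p = 1.48e-09), S100a10 (2.21 ± 0.204, adjusted p = 9.81e-09), Gas6, the ligand of TAM receptors (2.34 ± 0.251, adjusted p = 2.6e-07), the adenylate kinase Ak1 (1.75 ± 0.219, adjusted p = 5.33e-06) and Crym (3.31 ± 0.421, adjusted p = 6.05e-06) followed. For Myo7a and Aldh1a1 the change lay in neurons: their log2 fold change was -0.30 and -0.07 in astrocyte-marker cells and -4.39 ± 0.222 and -7.05 ± 0.633 in neurons.

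On the negative side, Luzp2 had a log2 fold change of -3.36 in astrocyte-marker cells and -0.61 ± 0.116 in neurons (difference -2.72 ± 0.234, adjusted p = 2.59e-09). Ampd3 (-3.04 ± 0.327, adjusted p = 2.6e-07), Robo1 (-1.87 ± 0.202, adjusted p = 2.77e-07), Cadm2 (-1.41 ± 0.183, adjusted p = 8.36e-06) and Ptprz1 (-1.48 ± 0.189, adjusted p = 6.54e-06) fell more in the astrocyte-marker cells as well. For Fgfbp3 (-2.08 ± 0.244, adjusted p = 1.41e-06), Pmepa1 (-1.88 ± 0.233, adjusted p = 4.61e-06), Adgrg1 (-1.17 ± 0.158, adjusted p = 1.65e-05), Sfrp1 (-1.74 ± 0.192, adjusted p = 3.73e-07) and Nfia (-1.24 ± 0.171, adjusted p = 2.53e-05) the values were opposite in sign. Nfia had a log2 fold change of -0.56 in astrocyte-marker cells and 0.68 ± 0.153 in neurons. Of 16 surface receptors 8 had a more negative effect in the astrocyte-marker cells and 1 a more positive effect (1.02% and 1.38% of all genes). The Hox genes, at 0 or near it in both control classes, allow no comparison of fold changes, and 0 of 32 passed by edgeR (1 at an unadjusted p under 0.05).

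**Figure D5:**
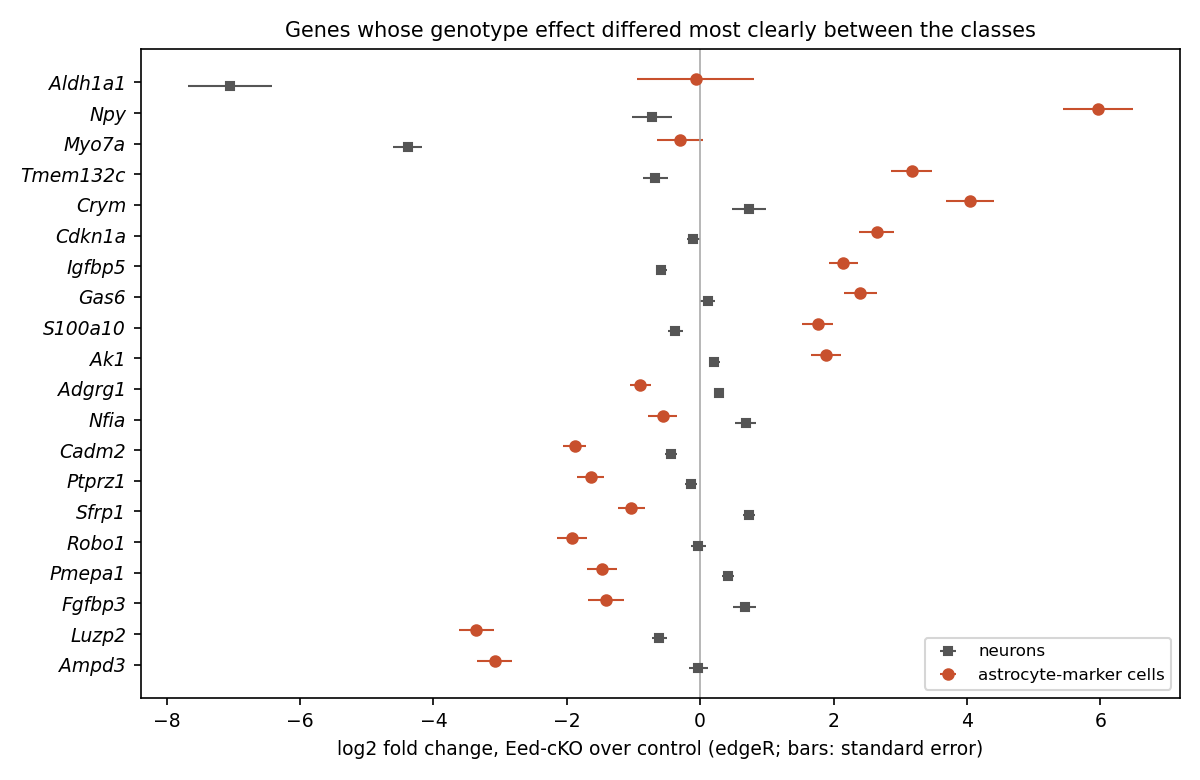
log2 fold change (Eed-cKO against control, with SE) in astrocyte-marker cells and in neurons for the 20 genes with the smallest interaction p, 10 in each direction. Npy, Igfbp5 and Tmem132c lie above 0 in astrocyte-marker cells and below it in neurons, while Luzp2 and Ampd3 lie lower in astrocyte-marker cells than in neurons.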

How the data were processed

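Hypothalamic cells of 6 control and 9 Eed-cKO embryos at E18.5 were used, from 48 ddSEQ libraries. The authors deposited UMI counts per gene and cell (16510 genes here), already filtered on depth (the lowest cell held 601 UMIs). The submitters' processing notes name STAR 2.5.2b, SAMtools 1.3 and mm10. The members and gene lists were chosen with earlier results of these data known. Cells were selected by UMIs of the rule genes, no doublets were removed, and raw counts were summed per embryo and cell class. An embryo is the replicate, since cells and libraries of 1 embryo share their source.

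Genes with at least 15 UMIs over the embryos and at least 2 in 1 embryo were tested with edgeR 4.0.16 (TMM, quasi-likelihood F test, 2 genotypes, no covariate, Benjamini-Hochberg over all genes tested, threshold 0.05) in R 4.3.3. CPM values used TMM library sizes, except those of the rule genes and the marker sums, which used total UMIs. The interaction with neurons was fitted with embryo as a block. Shares were compared by exact permutation over 5005 regroupings of embryos, and Hox load by exact sign flips over 512 patterns of the 9 embryos (Python 3.11.15, scipy 1.17.1). DESeq2 1.42.0, limma 3.58.1, other filters, thinning, libraries or litters as samples, sex as covariate, stricter members and leaving out each embryo were the alternatives. The limma test was against a minimum log2 fold change of 0.18, not against 0. The fitting script was tested on simulated data.

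Named genes are the 15 largest rises and falls whose embryos did not overlap between genotypes, up to 4 genes of smallest p per list with those whose role is explained, Eed, Gfap, the Hox genes, the rule genes (levels only) and the 10 smallest interaction p in each direction. A gene at 0 in a group was bounded by a floor of 3 UMIs over that group. Gene positions are from GENCODE (GRCm38). Hoxa6, Hoxa13, Hoxc11, Hoxd1, Hoxd12, Pclaf and some posterior factors were not analysed here, and a few other genes are not reported here.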

Additional observations from a re-analysis of the deposited data

Results flagged for a closer look

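Each of 269 sets of values (a gene or share in 1 genotype) was examined for an embryo far from the rest, the gap to its nearest neighbour being above Dixon's critical value for its group size. The number found was 31, and chance alone gives about 1 in 20 sets.

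Among control embryos, control embryo 5, which has the large library, was lowest for Scd2 (3128 CPM, next 5616), Ptprz1 (904 CPM, next 1736) and Glul (402 CPM, next 555). It was also the only control embryo with Tbx5 (2.77 CPM). Control embryo 3 held the only control Hox UMI (0.0573 per 10000), the only Foxc1 (5.78 CPM) and En1 (11.6 CPM) of the group and the highest En2 (11.6 CPM), and it was at 0 for Cdkn2c. Control embryo 1 was highest for S1pr3 (106 CPM), Timp1 (4.40 CPM) and Tmem132c (48.4 CPM). Control embryo 6 was highest for Trim12a (26.4 CPM) and Kdr (20.5 CPM), control embryo 4 for Itih3 (39.5 CPM) and Tfap2a (2.32 CPM), and control embryo 2 for Msx1 (91.3 CPM). Many of these are the value of 1 to a few UMIs.

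Among Eed-cKO embryos, embryo 2, with 19 cells, was highest for Cldn10 (102 CPM), Bmi1 (239 CPM), Hoxa11 (34.1 CPM), Hoxb2 (68.2 CPM) and Hoxb4 (34.1 CPM). Embryo 4 was highest for Gpr17 (3.16 CPM), Dlx5 (53.7 CPM) and Gata2 (47.4 CPM). Embryo 8 was highest for Hoxc4 (35.0 CPM), En2 (63.0 CPM) and Tfap2a (42.0 CPM). Embryo 3 was highest for Crym (1289 CPM), embryo 6 for Osmr (39.9 CPM), and embryo 1 lowest for Sox1 (29.4 CPM).

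The genotype effect differed between astrocyte-marker cells and neurons in 20 named genes, by the interaction test (log2 of the effect in astrocyte-marker cells over that in neurons). It was more positive for Aldh1a1 (6.97), Npy (6.95), Myo7a (4.15), Tmem132c (3.98), Crym (3.31), Cdkn1a (2.77), Igfbp5 (2.74), Gas6 (2.34), S100a10 (2.21) and Ak1 (1.75). It was more negative for Ampd3 (-3.04), Luzp2 (-2.72), Fgfbp3 (-2.08), Pmepa1 (-1.88), Robo1 (-1.87), Sfrp1 (-1.74), Ptprz1 (-1.48), Cadm2 (-1.41), Nfia (-1.24) and Adgrg1 (-1.17). Crym lost the call against all other cells in place of neurons and with neurons drawn to the number of astrocyte-marker cells; the cause was not tested.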

How the results depend on the processing

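The share of astrocyte-marker cells kept its direction in every alternative and passed under at least 2 markers (3.79 points), without non-neural cells (2.62), without the library of 1207 cells (2.81), with libraries as samples (2.68) and without each embryo in turn (2.17 to 3.06). It did not pass with at least 4 markers (1.40), thinned to 1000 (1.27) or 2000 UMIs (2.17), without cells with 3 neuron markers (1.98), with litters as samples (2.25), without cells with Foxj1, Pdgfra or Sox10 (0.907), without cells with Ttr, Cga or Tshb (1.79) and without cells with 3 ependymal, tanycyte or leptomeningeal markers (0.178). The Gfap share passed in all alternatives (5.55 to 14.8 points; 10.1 to 12.6 without each embryo). The Hox difference from neurons passed only against all other cells (1.41, exact sign-flip p = 0.0352) and without Eed-cKO embryo 5 (range 0.682 to 1.28 without each embryo). The count of 856 changed genes was 883 by DESeq2, 608 with edgeR's own filter and 695 to 969 without each embryo. By limma, which tested against a minimum log2 fold change of 0.18 and not against 0, it was 578. With libraries as samples it was 1521, without cells with Foxj1, Pdgfra or Sox10 511, and without cells with 3 ependymal, tanycyte or leptomeningeal markers 389. It was 1042 without cells with 3 neuron markers, also a fit with fewer cells, and the cause of these differences was not tested. The count of 375 interactions was 139 with drawn neurons, 644 without cells with 3 neuron markers and 242 to 377 without each embryo (242 without control embryo 6). Of 142 called genes named, 97 kept their call in every alternative in which they were tested and 0 reversed, while 20 lost it in a fit without 1 embryo. Not every gene was tested in each alternative, and edgeR's own filter kept 81 of them. The 142 include 27 Hox genes, whose calls were fixed by the count filter, so these counts do not measure how well calls hold. The settings that leave out the large library or cells with Ttr, Cga, Tshb, or 3 ependymal, tanycyte or leptomeningeal markers were chosen after seeing the data. No paired analysis was possible because the embryo numbers count embryos within litters, and no litter holds both genotypes. With 19 to 97 cells per embryo, genes of a few UMIs limit the precision.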

Other observations

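Transthyretin (Ttr), the carrier protein of the choroid plexus, was present in 1 of the 340 astrocyte-marker cells from control embryos and 42 of the 497 from Eed-cKO embryos. Per embryo the share was 0% in the median and 2.70% in the highest control embryo, and 0%, 6.49% and 35.5% in the lowest, median and highest Eed-cKO embryo, the highest being Eed-cKO embryo 8. The pituitary hormone genes Cga or Tshb were found in 0 control and 12 Eed-cKO cells. Their part in the other results was not tested beyond the alternative without these cells, in which the share difference was 1.79 points and 821 genes changed. Olig1, a factor of the oligodendrocyte lineage that young astrocytes also express, was present in 56.8% ± 7.01 (SD, n = 6) of these cells in control embryos and in 45.0% ± 9.30 (SD, n = 9) in Eed-cKO. Hopx, which marks outer radial glia and astrocytes, was present in 27.9% ± 9.39 and 42.5% ± 7.12, and its level did not pass (adjusted p = 0.197 by edgeR).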
